A study of Caenorhabditis elegans with 18 samples.

Results

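The comparison described here sets Caenorhabditis elegans animals that carry a deletion in nhr-68 against animals that carry a deletion in nhr-10, both grown with added vitamin B12. It rests on 4 of the 18 RNA sequencing libraries of the study, the 2 libraries of each mutant on B12, and was made across all genes of the deposited expression table. The nhr-68 mutants carry the allele gk708 in strain VC1527, and the nhr-10 mutants carry the allele tm4695, for which the labels name no strain. The reference wild type is the laboratory strain N2. Treated plates held 20 nM vitamin B12 alone or with 40 mM propionate, and untreated plates held neither, each for 48 hours. Each library was made from total RNA of about 3000 whole animals at the L4 larval stage, the last stage before adulthood. All animals, wild type included, came from populations kept for 2 generations without B12 and synchronized by arrest as L1 larvae. The labels do not say whether the 2 libraries of a group came from separate cultures or what a shared replicate number means, so p-values measure only the spread between these libraries. Each mutant is represented by a single allele.

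Propionate is a short-chain fatty acid that arises from the breakdown of some amino acids and of odd-chain fats, and it is toxic when it builds up. With enough B12, animals clear it through a canonical pathway that ends in a B12-dependent mutase. When B12 is scarce, C. elegans switches on an alternative, B12-independent route, the propionate shunt, whose first enzyme is the acyl-CoA dehydrogenase ACDH-1. NHR-10 and NHR-68 are nuclear hormone receptors, transcription factors of a family that binds small molecules, and both are known to be needed for the activation of the shunt.

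Levels are FPKM as the authors deposited them, that is, sequenced fragments divided by gene length and by library size. The 18 libraries hold 841999.6 to 920001.8 FPKM in total, and their depth, which the table does not state, was roughly estimated from the steps of low values as 12600000 to 14100000 fragments. Replicates on B12 correlated across genes with Pearson's r of 0.9859 in nhr-68 mutants and 0.9703 in nhr-10 mutants, and genes are not independent replicates. Differences are nhr-68 minus nhr-10 on the log2(FPKM + 1) scale, on which changes at levels around or below 1 FPKM come out too small. A gene is called when limma's p-value, adjusted by Benjamini and Hochberg over all genes of the comparison, is under 0.05.

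The deleted genes were examined first. nhr-68 itself had 1.71 and 2.49 FPKM in nhr-68 mutants, 5.18 and 13.06 FPKM in nhr-10 mutants and 48.69 and 50.37 FPKM in wild type, all on B12. Both mutants thus lay under wild type, with the nhr-68 libraries lowest and no overlap among the 3 genotypes. The drop against wild type was called in nhr-68 mutants (log2 difference -4.04, SE 0.38, adjusted p = 0.000193) and also in nhr-10 mutants (-2.44, SE 0.38, adjusted p = 0.00392), comparisons that share the wild type libraries. Between the mutants the difference on B12 was -1.6 (SE 0.38) and was not called (adjusted p = 0.261). It was called untreated (-2.91, SE 0.38, adjusted p = 0.00275) and on propionate (-1.93, SE 0.38, adjusted p = 0.0318). Untreated nhr-10 mutants had 79.1 and 140 FPKM of nhr-68, overlapping untreated wild type at 108 and 88.5 FPKM.

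nhr-10 had 20.36 and 18.64 FPKM in nhr-68 mutants, 7.25 and 7.40 FPKM in nhr-10 mutants and 19.78 and 12.23 FPKM in wild type. The nhr-10 mutants were lowest without overlap, but fragments of the gene were still counted there. The difference between the mutants was 1.3 (SE 0.32, adjusted p = 0.278), and that of nhr-10 mutants from wild type was -0.99 (SE 0.32, adjusted p = 0.066), so the table does not set the nhr-10 mutants apart at this gene past the threshold. The deposited values are per gene, and where the deletions lie within the genes was not analysed here.

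The mutants differed at few genes on B12. Of 15575 genes tested, 22 were called, a background of 0.141%, with 8 higher and 14 lower in nhr-68 mutants (0.0514% and 0.0899%). Of these, 6 of the higher and 12 of the lower genes differed by at least 2-fold. The 95% interval of the difference lay within 2-fold for 12297 genes (79.0%), and 880 genes (5.65%) had an unadjusted p under 0.05. The count of calls rests on few libraries. It was 8 without either of the nhr-68 libraries in turn, 11 without replicate 1 and 12 without replicate 2 of the nhr-10 mutants, and 1 (R09E10.2) when the model was fitted on these 4 libraries alone. Called in all 4 fits that left out a library were 7 genes, namely nra-2, Y58A7A.3, WBGene00194647, R09E10.2, ivd-1, C31E10.5 and C31E10.6.

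**Figure D1:**
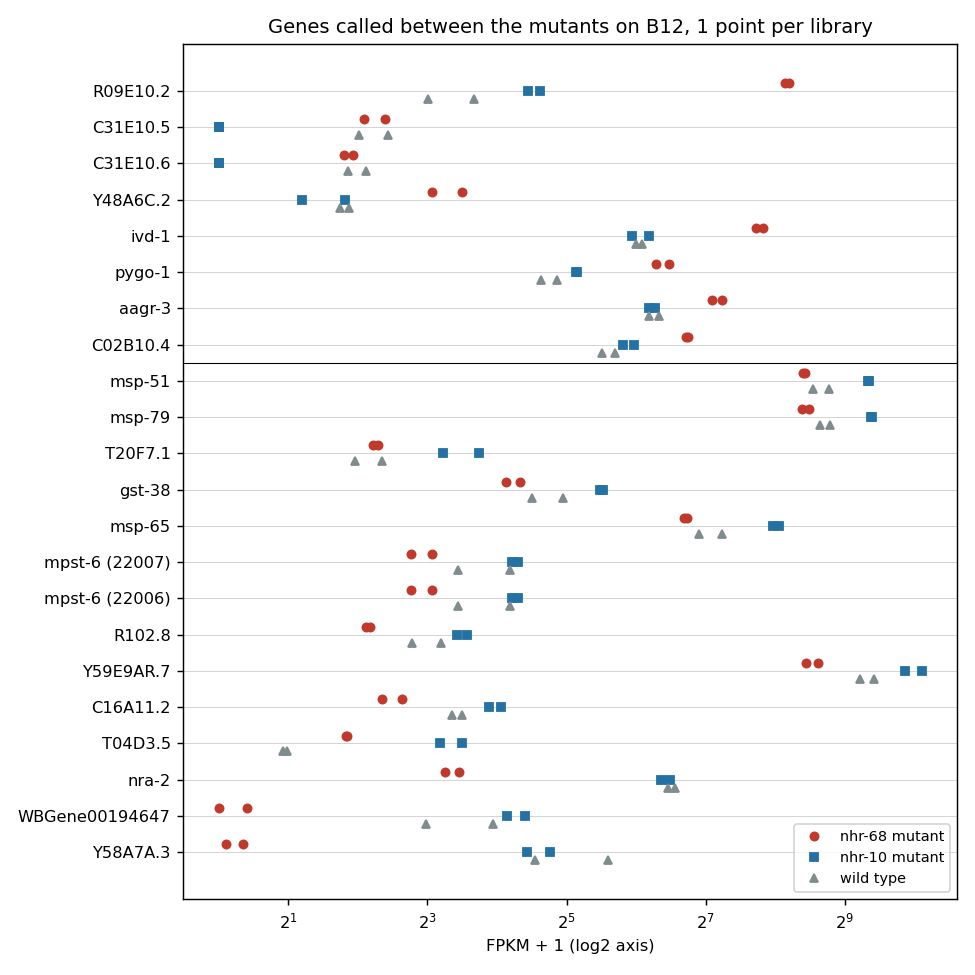
Levels of the genes called between the mutants on B12, as FPKM + 1 on a log2 axis, with 1 point for each of the 2 libraries of nhr-68 mutants, nhr-10 mutants and wild type. Genes above the line were higher and genes below it lower in nhr-68 mutants, with R09E10.2 at 279 and 293 FPKM in nhr-68 mutants against 23.7 and 20.8 FPKM in nhr-10 mutants. The 2 identifiers of mpst-6 carry the same values.

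Among enzymes of metabolism, ivd-1 showed the clearest difference. It encodes isovaleryl-CoA dehydrogenase, which acts in the breakdown of leucine, and lies on chromosome IV (5086856 to 5088864, minus strand, build WBcel235). ivd-1 had 224 and 211 FPKM in nhr-68 mutants, 72.0 and 60.2 FPKM in nhr-10 mutants and 62.7 and 67.1 FPKM in wild type. The nhr-68 mutants stood apart, and the nhr-10 and wild type libraries overlapped. The rise against nhr-10 mutants was 1.71 (SE 0.15, adjusted p = 0.000116). The last 52 bases of ivd-1 in the annotation overlap pygo-1 on the other strand, and strand use in counting is not given in the sources used here. Of the 11 genes of branched-chain amino acid breakdown tested, ivd-1 alone was called on B12, and 6 had both nhr-68 libraries above both nhr-10 libraries, against 10.4% of all genes tested.

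aagr-3, an acid alpha-glucosidase-related gene on chromosome V, had 136 and 150 FPKM in nhr-68 mutants, 71.8 and 75.9 FPKM in nhr-10 mutants and 79.0 and 71.9 FPKM in wild type. It rose by 0.94 (SE 0.11, adjusted p = 0.00248), and the call was lost without replicate 2 of the nhr-68 mutants (adjusted p = 0.0758). gst-38, one of the glutathione S-transferases that conjugate glutathione to reactive compounds, moved the other way. Its levels were 16.42 and 19.04 FPKM in nhr-68 mutants, 43.7 and 44.9 FPKM in nhr-10 mutants and 21.6 and 29.8 FPKM in wild type, a difference of -1.28 (SE 0.20, adjusted p = 0.0267) with no overlap. The 2 gene identifiers named mpst-6, of the mercaptopyruvate sulfurtransferase family, carry identical values in all libraries and cannot be told apart. They had 7.39 and 5.81 FPKM in nhr-68 mutants, 18.7 and 17.6 FPKM in nhr-10 mutants and 17.3 and 9.84 FPKM in wild type (-1.34, SE 0.22, adjusted p = 0.0362). Both gst-38 and mpst-6 lost the call without any 1 of the 4 libraries.

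Among genes of membranes and signalling, nra-2 had the smallest adjusted p of the comparison. It encodes a nicalin-related protein of the endoplasmic reticulum that takes part in the assembly of acetylcholine receptors. nra-2 had 8.49 and 9.92 FPKM in nhr-68 mutants, 80.9 and 88.7 FPKM in nhr-10 mutants and 93.4 and 86.7 FPKM in wild type. The nhr-68 libraries were far below all others, while the nhr-10 mutants lay within the range seen in wild type or just below it. The difference between the mutants was -3.07 (SE 0.13, adjusted p = 9.71e-08). pygo-1, the worm relative of the Wnt signalling co-factor pygopus, had 76.8 and 87.7 FPKM in nhr-68 mutants, 34.6 and 34.2 FPKM in nhr-10 mutants and 23.87 and 28.03 FPKM in wild type (1.23, SE 0.20, adjusted p = 0.0289).

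The 3 called major sperm protein genes were lower in nhr-68 mutants, all without overlap. Major sperm proteins form the motile cytoskeleton of nematode sperm, and their genes are near-identical copies among which the authors' counting could split reads, so single members are uncertain. msp-65 had 105 and 102 FPKM in nhr-68 mutants, 249 and 264 FPKM in nhr-10 mutants and 150 and 118 FPKM in wild type (-1.3, SE 0.18, adjusted p = 0.012). msp-79 (334 and 357 FPKM in nhr-68 mutants against 668 and 666 FPKM in nhr-10 mutants) and msp-51 (338 and 342 against 644 and 652 FPKM) fell by 0.95 and 0.93 on the log2 scale. In each the wild type libraries lay between the mutants. None of the 3 kept the call in any fit that left out a library. Over the whole sperm list, 52 genes were tested on B12, and 3 fell and none rose. There 30 (57.7%) had both nhr-68 libraries below both nhr-10 libraries, against 24.8% of all genes. Untreated, 20 were lower and 15 higher without overlap, and on propionate 20 and 19. Of all genes, 52.6% untreated and 52.7% on propionate were non-overlapping in either direction. Of the list, 3 genes were called lower untreated and 1 on propionate, and none was called higher. The median difference of the list was -0.22 on B12, 0.0 untreated and -0.04 on propionate, against -0.09, -0.16 and -0.12 for all genes. The summed level of the list on B12 was 13858 and 13124 FPKM in nhr-68 mutants, 16407 and 17358 FPKM in nhr-10 mutants and 13236 and 9327 FPKM in wild type. In whole animals, fewer cells of a type and less RNA per cell cannot be told apart.

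The largest differences lay in genes for which no role is given here. R09E10.2, on chromosome IV (10317563 to 10318299, minus strand), had 279 and 293 FPKM in nhr-68 mutants, 23.7 and 20.8 FPKM in nhr-10 mutants and 11.76 and 7.02 FPKM in wild type. It was far higher in nhr-68 mutants, by 3.63 over nhr-10 mutants (SE 0.22, adjusted p = 5.30e-06). The nhr-10 mutants were in turn called above wild type (1.2, SE 0.22, adjusted p = 0.0082). No neighbour of R09E10.2 within 20 kb had non-overlapping libraries in the same direction. Y58A7A.3, on chromosome V (5077854 to 5080903, minus strand), was close to 0 in nhr-68 mutants, at 0.28 and 0.08 FPKM, against 26.1 and 20.7 FPKM in nhr-10 mutants and 47.3 and 22.4 FPKM in wild type (-4.36, SE 0.30, adjusted p = 1.69e-05). WBGene00194647, a gene given by its WormBase identifier on chromosome IV (16506572 to 16507232, minus strand), had 0 and 0.33 FPKM in nhr-68 mutants, 16.6 and 20.1 FPKM in nhr-10 mutants and 14.3 and 6.91 FPKM in wild type. The wild type libraries of WBGene00194647 were on the side of the nhr-10 mutants, and the difference between the mutants was -4.06 (SE 0.40, adjusted p = 0.000376).

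C31E10.5 and C31E10.6 showed the reverse arrangement, with the nhr-10 mutants apart. These neighbours on chromosome X lie at 13991458 to 13995834 and 13996338 to 13999351, on opposite strands. C31E10.5 had 3.27 and 4.22 FPKM in nhr-68 mutants, was listed at 0 in both nhr-10 libraries and had 4.40 and 3.04 FPKM in wild type (adjusted p = 5.59e-05 between the mutants). C31E10.6 had 2.49 and 2.82 FPKM in nhr-68 mutants, was listed at 0 in both nhr-10 libraries and had 3.33 and 2.61 FPKM in wild type (adjusted p = 9.71e-05). Both genes were listed at 0 in all nhr-10 libraries of the study, whatever the treatment.

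The other called genes without a stated role differed less. Y59E9AR.7 (WBGene00021997) was the most abundant of them, with 392.1 and 346.2 FPKM in nhr-68 mutants, 931 and 1105 FPKM in nhr-10 mutants and 685 and 591 FPKM in wild type (-1.46, SE 0.19, adjusted p = 0.00667). The name is also carried by another gene identifier, and whether reads were shared between them was not tested. C16A11.2 had 4.09 and 5.24 FPKM in nhr-68 mutants against 15.7 and 13.8 FPKM in nhr-10 mutants. R102.8 had 3.51 and 3.35 FPKM in nhr-68 mutants against 9.77 and 10.9 FPKM in nhr-10 mutants. In these 3 genes wild type lay between the mutants. T04D3.5 had 2.55 and 2.6 FPKM in nhr-68 mutants, 10.3 and 8.05 FPKM in nhr-10 mutants and 0.89 and 0.97 FPKM in wild type, so both mutants were above wild type. T20F7.1 had 3.65 and 3.88 FPKM in nhr-68 mutants, 12.3 and 8.39 FPKM in nhr-10 mutants and 4.08 and 2.90 FPKM in wild type, with the nhr-10 mutants apart. The differences at these last 4 genes ran between -1.5 and -1.23. Of the higher ones, C02B10.4 had 104 and 106 FPKM in nhr-68 mutants, 61.4 and 55.3 FPKM in nhr-10 mutants and 50.6 and 44.4 FPKM in wild type (0.84, SE 0.12, adjusted p = 0.0159). The pseudogene Y48A6C.2 had 7.34 and 10.3 FPKM in nhr-68 mutants and 2.53 and 1.29 FPKM in nhr-10 mutants (1.77, SE 0.26, adjusted p = 0.0159). T04D3.5, T20F7.1, R102.8 and Y48A6C.2 each overlap another annotated gene of the table (gcy-35, acs-9, R102.3 and sup-35 in turn), and their levels are uncertain for that reason. T04D3.5, T20F7.1 and R102.8 overlap it on the other strand.

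Set beside wild type on B12, the nhr-68 mutants alone were called at 12 of the 22 genes, the nhr-10 mutants alone at 7 and both at 3. The mean of nhr-68 mutants was the farther from wild type at 14 genes and that of nhr-10 mutants at 8. Since these genes were chosen for a difference between the mutants and the comparisons share the wild type libraries, these counts are a description. Against wild type, nhr-68 mutants had 1532 called genes (9.84%) and nhr-10 mutants 1507 (9.68%), against 22 between the mutants. These counts rest on few libraries too. The count for nhr-68 mutants was 181 without replicate 2 of wild type, 185 without replicate 1 of the nhr-68 mutants, 632 without replicate 1 of wild type and 773 without replicate 2 of the nhr-68 mutants. That for nhr-10 mutants was 103 without replicate 1 of the nhr-10 mutants, 95 higher and 19 lower genes without replicate 2 of wild type, 919 without replicate 1 of wild type and 118 with only the compared groups in the fit. In the full fit nhr-68 mutants had 818 higher (5.25%) and 714 lower genes (4.58%), and nhr-10 mutants 1016 higher (6.52%) and 491 lower (3.15%), or 842 higher and 718 lower with median-ratio scaling of the libraries.

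Markers of larval stage moved with the contrasts against wild type. The first principal component of 142 cuticle collagen, moulting and vitellogenin genes stood at 14.32 and 11.23 in nhr-68 mutants, 16.33 and 5.18 in nhr-10 mutants and -12.93 and -16.6 in wild type on B12. The mutants' scores overlapped and those of wild type were apart. With the first 2 components as covariates, 3 genes were called between nhr-68 mutants and wild type and 2 between nhr-10 mutants and wild type. Between the mutants, whose scores overlapped, 18 were called, 16 of them among the 22. The first component set wild type apart from both mutants, so the fit could hardly tell it from genotype there. Of the 129 collagens tested, 20 were called higher and 30 lower in nhr-68 mutants against wild type, against 5.25% and 4.58% of all genes. In nhr-10 mutants 20 were called higher and 24 lower, against 6.52% and 3.15% of all genes. The cause of the fall in calls against wild type was not tested. Vitellogenins, the yolk proteins, summed to 9653 and 7513 FPKM in nhr-68 mutants, 8130 and 3305 FPKM in nhr-10 mutants and 819 and 629 FPKM in wild type. No vitellogenin was called between the mutants.

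No gene of the propionate shunt was called between the mutants on B12. acdh-1 had 0.42 and 0.36 FPKM in nhr-68 mutants, 0.07 and 0.25 FPKM in nhr-10 mutants and 65.5 and 116 FPKM in wild type. Both mutants were near 0 where wild type was not, and the difference between the mutants was 0.26 (SE 0.32, adjusted p = 0.947). acdh-1 and acdh-2 are close copies, and reads could be split between them. The enoyl-CoA hydratase gene ech-6 had 97.5 and 93.3 FPKM in nhr-68 mutants, 90.2 and 94.2 FPKM in nhr-10 mutants and 177 and 173 FPKM in wild type. hphd-1, which encodes the shunt's 3-hydroxypropionate-oxoacid transhydrogenase, had 17.37 and 18.98 FPKM in nhr-68 mutants, 14.0 and 18.3 FPKM in nhr-10 mutants and 79.3 and 78.6 FPKM in wild type. In ech-6 and hphd-1 the mutants overlapped and lay below wild type. hach-1, the hydrolase of 3-hydroxypropionyl-CoA, had 45.9 and 45.8 FPKM in nhr-68 mutants, 45.6 and 54.7 FPKM in nhr-10 mutants and 69.8 and 64.5 FPKM in wild type. alh-8, the dehydrogenase of malonic semialdehyde, had 318 and 334 FPKM in nhr-68 mutants, 242 and 227 FPKM in nhr-10 mutants and 279 and 317 FPKM in wild type. It was the shunt gene with the largest difference between the mutants (0.47, SE 0.13, adjusted p = 0.476). The 95% intervals of all 5 shunt genes lay within 2-fold. On B12, 2 of the 5 (40.0%) were non-overlapping and higher in nhr-68 mutants, against 10.4% of all genes, and none was non-overlapping and lower. Against wild type, 3 of the 5 were called lower in nhr-68 mutants and 3 in nhr-10 mutants. Of all genes, 4.58% and 3.15% were called lower in turn.

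In the other treatments 2 shunt genes were called between the mutants. Untreated, alh-8 was called higher in nhr-68 mutants (1.06, SE 0.13, adjusted p = 0.00193), with 399 and 407 FPKM in nhr-68 mutants against 206 and 180 FPKM in nhr-10 mutants. hach-1 was called too (1.29, SE 0.22, adjusted p = 0.0203), with 141 and 145 FPKM in nhr-68 mutants against 50.04 and 66.77 FPKM in nhr-10 mutants. On B12 with propionate alh-8 alone was called (0.74, SE 0.13, adjusted p = 0.0181). Without overlap, 2 shunt genes were higher and 1 lower in nhr-68 mutants untreated, and all 5 were higher on propionate. Of all genes, 52.6% and 52.7% were non-overlapping in either direction in these treatments. The tests of whether these differences themselves changed with treatment did not pass the threshold for any of the 5 shunt genes, with the lowest adjusted p, 0.778, for hach-1 between B12 and untreated. acdh-1 had 237 and 187 FPKM in nhr-68 mutants and 334 and 591 FPKM in nhr-10 mutants untreated (-1.07, SE 0.32, adjusted p = 0.141), and 1.68 and 2.75 FPKM against 0.16 and 0.44 FPKM on propionate (1.29, SE 0.32, adjusted p = 0.0726).

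**Figure D2:**
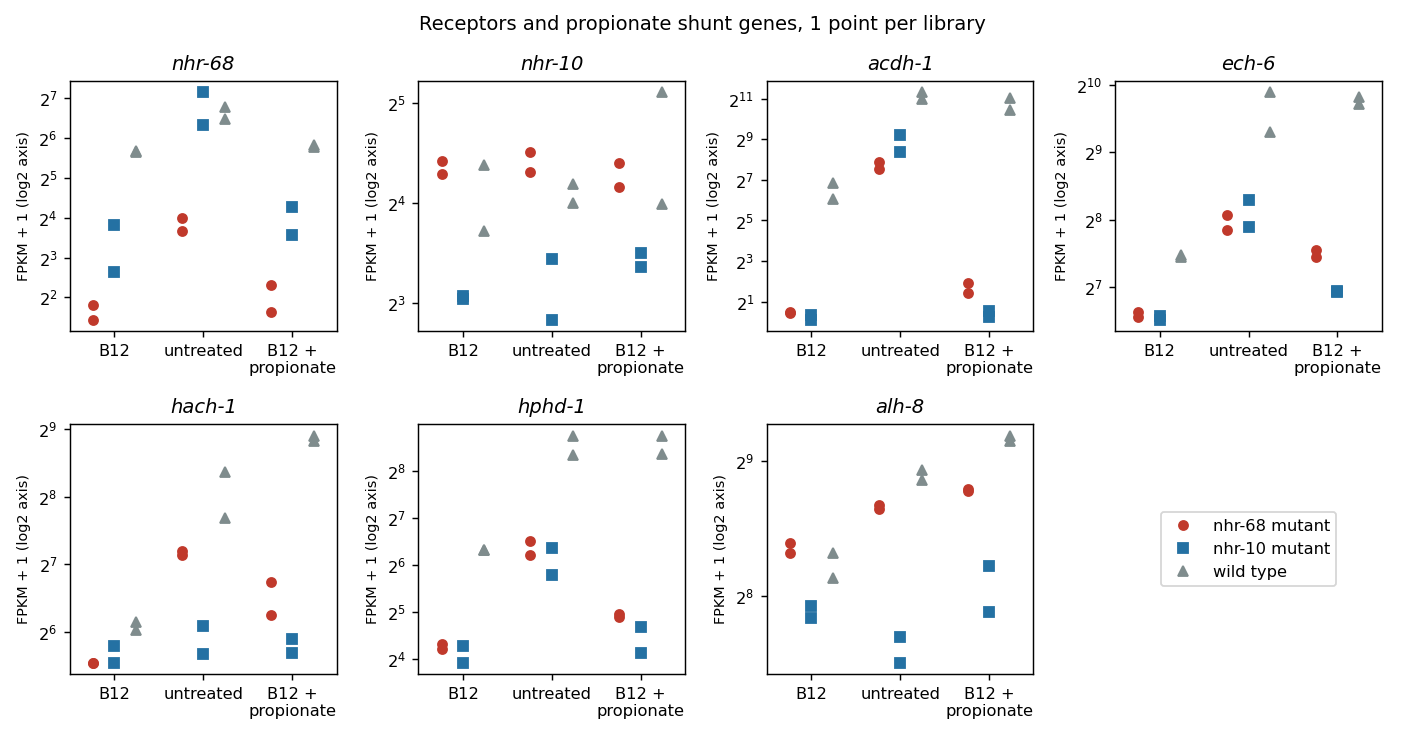
Levels of both deleted receptor genes and of the 5 propionate shunt genes, as FPKM + 1 on log2 axes that differ between panels, in nhr-68 mutants, nhr-10 mutants and wild type under each treatment, 1 point per library. On B12 acdh-1 was under 1 FPKM in all 4 mutant libraries and at 65.5 and 116 FPKM in wild type. There alh-8 had 318 and 334 FPKM in nhr-68 mutants and 242 and 227 FPKM in nhr-10 mutants.

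No gene of the canonical pathway, the methionine cycle or the regulator list was called between the mutants on B12. All 7 intervals of the canonical pathway lay within 2-fold, and 2 of the 7 genes had non-overlapping libraries, against 35.2% of all genes. mmcm-1, the B12-dependent methylmalonyl-CoA mutase, had 46.2 and 47.6 FPKM in nhr-68 mutants, 45.8 and 51.9 FPKM in nhr-10 mutants and a mean of 53.9 ± 4.05 FPKM in wild type (SD, n = 2). pcca-1, a subunit of propionyl-CoA carboxylase, had 101 and 118 FPKM in nhr-68 mutants, 98.3 and 120 FPKM in nhr-10 mutants and 126 and 149 FPKM in wild type. The mutants overlapped at both genes. Of 15 genes of the methionine and S-adenosylmethionine cycle, 13 had intervals within 2-fold and 4 were non-overlapping. Of these 4, 2 were higher and 2 lower in nhr-68 mutants (13.3% each), against 10.4% and 24.8% of all genes. Among them was folt-2 (0.87, 95% interval 0.43 to 1.3, adjusted p = 0.239), whose levels stand with the treatments below. metr-1, the B12-dependent methionine synthase, had 31.7 and 33.4 FPKM in nhr-68 mutants, 30.4 and 27.4 FPKM in nhr-10 mutants and 32.41 and 31.95 FPKM in wild type (0.17, SE 0.21, adjusted p = 0.952). The 9 metabolic regulators (mdt-15, sbp-1, nhr-49, nhr-80, nhr-66, nhr-114, nhr-8, nhr-86 and nhr-13) had differences between -0.35 for nhr-13 and 0.13 for nhr-80. Of these, 3 (33.3%) were non-overlapping and lower in nhr-68 mutants, against 24.8% of all genes.

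Broader gene groups held few calls, as did all genes tested (0.141%). Of 37 glutathione S-transferase genes tested, gst-38 fell and none rose, and 18 (48.6%) had both nhr-68 libraries below both nhr-10 libraries, against 24.8% of all genes, with a median difference of -0.28 against -0.09 for all genes. gst-4, a common reporter of oxidative stress in worms, had 45.0 and 48.2 FPKM in nhr-68 mutants, 85.1 and 124 FPKM in nhr-10 mutants and 81.9 and 69.3 FPKM in wild type, and was not called (-1.13, SE 0.21, adjusted p = 0.0868). None of 22 genes of the tricarboxylic acid and glyoxylate cycle was called, with 10 (45.5%) of them non-overlapping and higher in nhr-68 mutants, against 10.4% of all genes, and a median of 0.12 against -0.09 for all genes. ogdh-1, a subunit of oxoglutarate dehydrogenase, had 154 and 136 FPKM in nhr-68 mutants, 114.4 and 104.7 FPKM in nhr-10 mutants and 109 and 132 FPKM in wild type (0.40, SE 0.16, adjusted p = 0.854). No cuticle collagen was called among 129 tested, no cytosolic ribosomal protein gene among 78 and no cytochrome P450 gene among 49. At the share called over all genes, groups of this size would mostly hold no call, so these counts do not set them apart. Non-overlapping and higher were 6 (4.65%) of the collagens, 32 (41.0%) of the ribosomal protein genes and 3 (6.12%) of the cytochrome P450 genes. Non-overlapping and lower were 12 (9.3%), 11 (14.1%) and 17 (34.7%) in turn. Of all genes, 10.4% were non-overlapping and higher and 24.8% lower. Body wall muscle markers, none of them called, had a median difference of 0.46, and unc-54, the major body wall muscle myosin, had 772 and 851 FPKM in nhr-68 mutants, 491 and 613 FPKM in nhr-10 mutants and 624 and 858 FPKM in wild type (0.56, SE 0.24, adjusted p = 0.856). Neuron markers, none of them called either, had a median of -0.11. Markers of each tissue looked for were detected, including the intestinal actin act-5 at 1153 and 1126 FPKM in nhr-68 mutants and 1000 and 877 FPKM in nhr-10 mutants.

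The genes called on B12 were looked up in the other treatments. Those libraries were part of the same fit, through the filter and the shared variance, so the look-up is not independent of the choice of genes. Of the 22 genes, 20 (90.9%) were called in the same direction untreated, where 87 genes were called in all (0.559%). On B12 with propionate 17 (77.3%) were called in the same direction, of 199 called in all (1.28%). All 22 had the same sign and non-overlapping libraries in both other treatments, where 52.6% (untreated) and 52.7% (propionate) of all genes were non-overlapping in either direction, against 35.2% on B12. In all 3 treatments 16 were called. Genome-wide, 418 genes (2.68%) were non-overlapping and higher in nhr-68 mutants in all 3 treatments and 1493 (9.59%) non-overlapping and lower. Seen from the other side, 20 of the 87 untreated calls and 17 of the 199 propionate calls were called on B12. The untreated calls comprised 35 higher (0.225%) and 52 lower genes (0.334%), or 64 higher and 26 lower with median-ratio scaling, and the propionate calls 65 higher (0.417%) and 134 lower (0.86%), or 78 and 93 with that scaling. Leaving out a library gave 27 to 53 untreated calls and 52 to 376 propionate calls, the most without replicate 1 of the nhr-10 mutants on propionate.

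R09E10.2 had 234 and 201 FPKM in untreated nhr-68 mutants against 10.8 and 12.4 FPKM in untreated nhr-10 mutants, and 202 and 229 FPKM against 12.3 and 13.1 FPKM on propionate. nra-2 had 10.9 and 10.5 FPKM in untreated nhr-68 mutants against 92.7 and 98.3 FPKM in untreated nhr-10 mutants, and 9.94 and 12.1 FPKM against 96.1 and 92.2 FPKM on propionate. Y58A7A.3 had 0.62 and 1.25 FPKM in untreated nhr-68 mutants against 50.7 and 47.2 FPKM in untreated nhr-10 mutants, and 0.18 and 0.25 FPKM against 50.72 and 46.16 FPKM on propionate. Over the 3 treatments the difference lay between 3.63 and 4.11 for R09E10.2 and between -3.07 and -2.99 for nra-2. For Y58A7A.3 it was -4.36 on B12, -4.71 untreated and -5.35 on propionate, and its change between B12 and propionate was 0.98 (95% interval 0.06 to 1.91, adjusted p = 0.906).

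**Figure D3:**
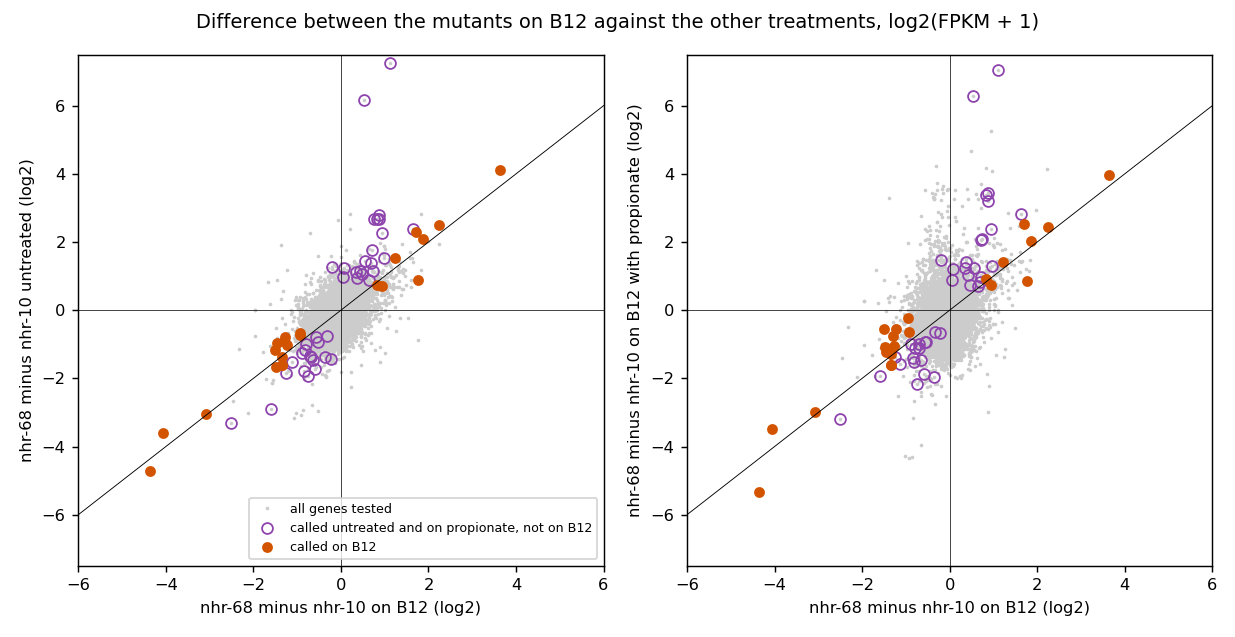
Difference between nhr-68 and nhr-10 mutants on B12 (x axis) against the difference in untreated animals (left, y axis) and on B12 with propionate (right, y axis), as log2(FPKM + 1) differences, with 1 point per gene and a line of equality. The 22 genes called on B12 share their sign in both other treatments, and the 39 genes called in both other treatments but not on B12 mostly lie farther from 0 there than on B12.

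A larger set of 55 genes was called in the same direction both untreated and on propionate, 28 higher and 27 lower in nhr-68 mutants. On B12, 16 of them were called and 39 were not. Of those 39, 38 had the same sign on B12. Among the 21 higher ones, 18 had non-overlapping libraries on B12 in that direction, against 10.4% of all genes. Their median difference was 0.69 on B12, 1.45 untreated and 1.42 on propionate. Among the 18 lower ones, 17 were non-overlapping on B12 in that direction, against 24.8% of all genes. Their medians were -0.73 on B12, -1.4 untreated and -1.39 on propionate. Those medians are of genes chosen for their calls outside B12, so a smaller size on B12 is in part built into the choice, and only the tests of the difference below bear on single genes.

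The tests of the mutant difference on B12 minus that in another treatment called 3 genes against untreated animals (0.0193%) and 5 against propionate (0.0321%), all with a smaller excess of nhr-68 mutants on B12. With median-ratio scaling of the libraries 8 genes were called against propionate, 7 lower and 1 higher in that difference. Without replicate 1 of the nhr-10 mutants on propionate 67 genes were called against propionate, 44 lower and 23 higher, and without the filter on low values 30, 11 lower and 19 higher. At an unadjusted p under 0.05 the counts were 293 (1.88%) and 840 (5.39%). acdh-2, an acyl-CoA dehydrogenase gene on chromosome II, had 0.66 and 1.81 FPKM in nhr-68 mutants on B12, and was listed at 0 in both nhr-10 libraries. Untreated, acdh-2 had 150 and 166 FPKM in nhr-68 mutants, 0.08 and 0 FPKM in nhr-10 mutants and 16.18 and 22.87 FPKM in wild type. On propionate it had 86.03 and 229.2 FPKM in nhr-68 mutants, 0.07 and 0.08 FPKM in nhr-10 mutants and 52.3 and 54.6 FPKM in wild type. acdh-2 was thus near 0 in nhr-10 mutants throughout, and high in nhr-68 mutants except on B12. The adjusted p of the difference between differences was 0.00146 against untreated animals and 0.00218 against propionate.

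C09B8.4, on chromosome X (6018442 to 6019936), had the same arrangement. On B12 it had 0.08 and 0.91 FPKM in nhr-68 mutants, was listed at 0 in both nhr-10 libraries and had 0.73 and 1.11 FPKM in wild type. Untreated it had 77.2 and 81.0 FPKM in nhr-68 mutants, 0 and 0.26 FPKM in nhr-10 mutants and 3.68 and 4.46 FPKM in wild type. On propionate it had 61.2 and 96.8 FPKM in nhr-68 mutants, was listed at 0 in both nhr-10 libraries and had 27.5 and 27.8 FPKM in wild type. The nhr-68 mutants exceeded wild type in both treatments other than B12. The adjusted p was 3.16e-05 against untreated animals and 2.41e-05 against propionate, and the calls at acdh-2 and C09B8.4 held without any 1 library of the comparison. With a pseudocount of 0.1 neither was called against untreated animals, each with adjusted p = 0.105, and acdh-2 was not called against propionate either (adjusted p = 0.11). With only the compared groups in the fit both lost the call against propionate, with adjusted p = 0.218 for acdh-2 and 0.0548 for C09B8.4.

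dhs-25, a short-chain dehydrogenase gene, had 56.49 and 67.96 FPKM in nhr-68 mutants, 32.01 and 34.86 FPKM in nhr-10 mutants and 69.4 and 59.1 FPKM in wild type on B12. Untreated it had 198 and 209 FPKM in nhr-68 mutants against 28.3 and 34.1 FPKM in nhr-10 mutants, and on propionate 238 and 297 FPKM against 24.4 and 32.5 FPKM. Its difference of differences was -1.80 (SE 0.25, adjusted p = 0.0358) against untreated animals, a call lost without any 1 of the 8 libraries, and -2.32 (SE 0.25, adjusted p = 0.00234) against propionate. folt-2, of the folate transporter family, had 9.55 and 12.04 FPKM in nhr-68 mutants, 4.99 and 5.91 FPKM in nhr-10 mutants and 81.7 and 99.1 FPKM in wild type on B12. Untreated, folt-2 had 135 and 125 FPKM in nhr-68 mutants against 16.8 and 19.1 FPKM in nhr-10 mutants. Its difference of differences against untreated animals was -1.92 (SE 0.28) and was not called (adjusted p = 0.0599). On propionate it had 58.4 and 91.4 FPKM in nhr-68 mutants against 6.06 and 5.72 FPKM in nhr-10 mutants. Both mutants lay below wild type at folt-2 on B12, and the difference of differences against propionate was -2.56 (SE 0.28, adjusted p = 0.00287). ugt-53, a UDP-glucuronosyltransferase gene, had 3.40 and 4.51 FPKM in nhr-68 mutants and 1.82 and 1.73 FPKM in nhr-10 mutants on B12, and 20.3 and 30.3 FPKM against 1.49 and 1.47 FPKM on propionate. Its call (-2.55, SE 0.34, adjusted p = 0.0193) held in 2 of 8 fits that left out a library.

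**Figure D4:**
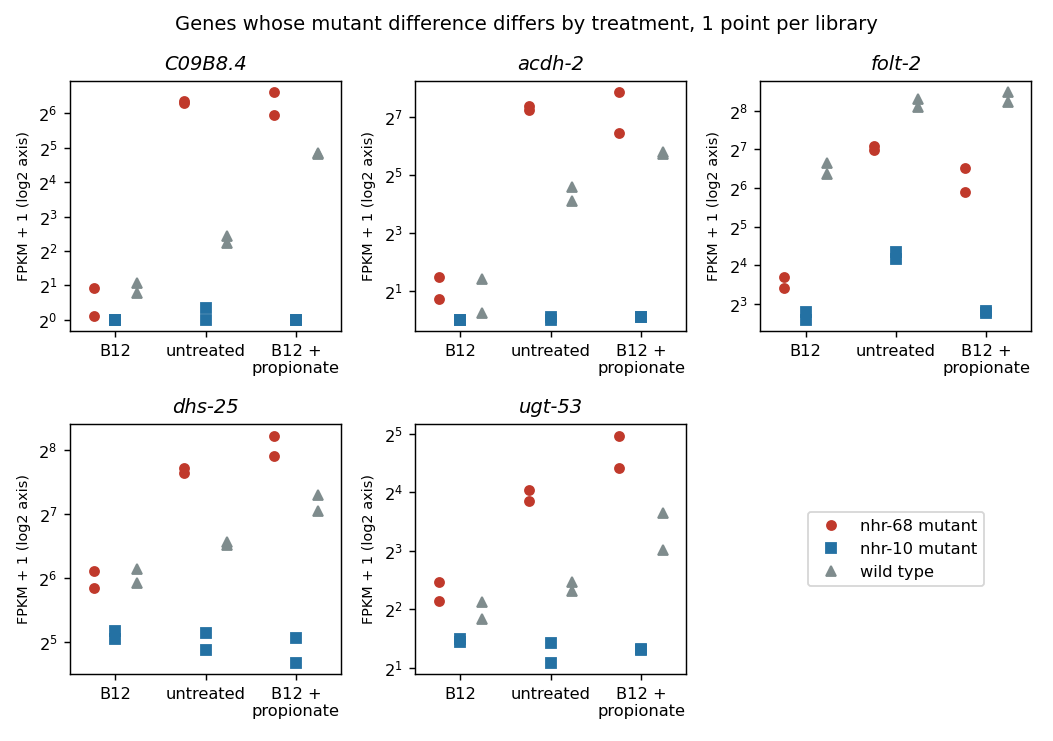
Levels of the 5 genes whose difference between the mutants differed between B12 and another treatment, as FPKM + 1 on log2 axes that differ between panels, 1 point per library of nhr-68 mutants, nhr-10 mutants and wild type. On B12 nhr-68 mutants had 0.08 and 0.91 FPKM of C09B8.4, and untreated 77.2 and 81.0 FPKM, while nhr-10 mutants stayed at or under 0.26 FPKM in every treatment.

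Of the other genes called in both treatments without being called on B12, kat-1, a thiolase of fatty acid oxidation, had 104 and 83.3 FPKM in nhr-68 mutants and 100.3 and 80.04 FPKM in nhr-10 mutants on B12, so that the groups overlapped. Untreated it had 194 and 156 FPKM in nhr-68 mutants against 102 and 74.0 FPKM in nhr-10 mutants (0.99, SE 0.19, adjusted p = 0.0369). acdh-9, another acyl-CoA dehydrogenase gene, had 49.6 and 50.2 FPKM in nhr-68 mutants and 39.3 and 38.4 FPKM in nhr-10 mutants on B12 (0.35, SE 0.13, adjusted p = 0.755), and rose by 1.11 untreated and 1.24 on propionate. Among the lower ones, dpy-27, a condensin subunit of the X chromosome dosage compensation complex, had 7.92 and 8.39 FPKM in nhr-68 mutants, 14.9 and 15.3 FPKM in nhr-10 mutants and 8.98 and 10.2 FPKM in wild type on B12 (-0.81, SE 0.16, adjusted p = 0.106). The nhr-68 libraries of dpy-27 lay below those of nhr-10 mutants there too. dod-24, a gene of the innate immunity list, had 189 and 205 FPKM in nhr-68 mutants and 370 and 338 FPKM in nhr-10 mutants on B12 (-0.84, SE 0.22, adjusted p = 0.344), and fell untreated (-1.79, SE 0.22, adjusted p = 0.00157). These 4 genes were picked after their values were seen.

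The called genes were not spread evenly over the chromosomes. Chromosome IV held 12 of the 22 (54.5%), against 17.4% of all genes tested, chromosomes V and X 3 each, chromosome I 2, and chromosomes II and III 1 each. The 12 include the 3 msp genes and both mpst-6 identifiers. Within 20 kb of ivd-1 lie pygo-1, snpn-1 and C02B10.4, a run from 5083303 to 5092807 on chromosome IV whose 4 genes sit on both strands. snpn-1, the worm snapin, had 71.3 and 81.9 FPKM in nhr-68 mutants, 36.1 and 31.7 FPKM in nhr-10 mutants and 24.3 and 17.3 FPKM in wild type (1.15, SE 0.24, adjusted p = 0.166). All 4 genes were non-overlapping and higher in nhr-68 mutants in all 3 treatments, against 2.68% of all genes. Of them, ivd-1, pygo-1 and C02B10.4 were themselves called on B12. C02B10.3, next to C02B10.4, had 23.9 and 32.9 FPKM in nhr-68 mutants and 22.5 and 29.5 FPKM in nhr-10 mutants, and C02B10.6, on the other side of pygo-1, 16.99 and 24.6 FPKM against 15.94 and 21.04 FPKM, so both overlapped between the mutants.

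Around aagr-3 on chromosome V, 7 of the 10 genes tested within 20 kb were non-overlapping and higher in nhr-68 mutants in all 3 treatments. Of all genes, 2.68% were so, and none of these neighbours was called on B12. xbx-6 had 68.4 and 68.9 FPKM in nhr-68 mutants, 41.7 and 45.9 FPKM in nhr-10 mutants and 38.9 and 39.4 FPKM in wild type (0.64, SE 0.14, adjusted p = 0.191). aqp-4, an aquaporin gene, had 92.9 and 119.5 FPKM in nhr-68 mutants, 37.8 and 58.9 FPKM in nhr-10 mutants and 39.2 and 37.8 FPKM in wild type (1.14, SE 0.28, adjusted p = 0.287). At both genes wild type was at or below the level of the nhr-10 mutants. slcr-46.3 was arranged otherwise, with 14.45 and 21.57 FPKM in nhr-68 mutants, 8.07 and 9.67 FPKM in nhr-10 mutants and 29.68 and 37.89 FPKM in wild type, above both mutants. Beyond the 20 kb window, her-1, a sex determination gene next to xbx-6, had 2.62 and 2.61 FPKM in nhr-68 mutants, 0.30 and 0.46 FPKM in nhr-10 mutants and 0.31 and 0.48 FPKM in wild type (1.39, SE 0.29, adjusted p = 0.159). Next to Y58A7A.3, Y58A7A.4 was listed at 0 in both nhr-68 libraries on B12 and had 0.47 and 0.53 FPKM in nhr-10 mutants. Around WBGene00194647, as around R09E10.2, no neighbour was non-overlapping in the same direction.

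**Figure D5:**
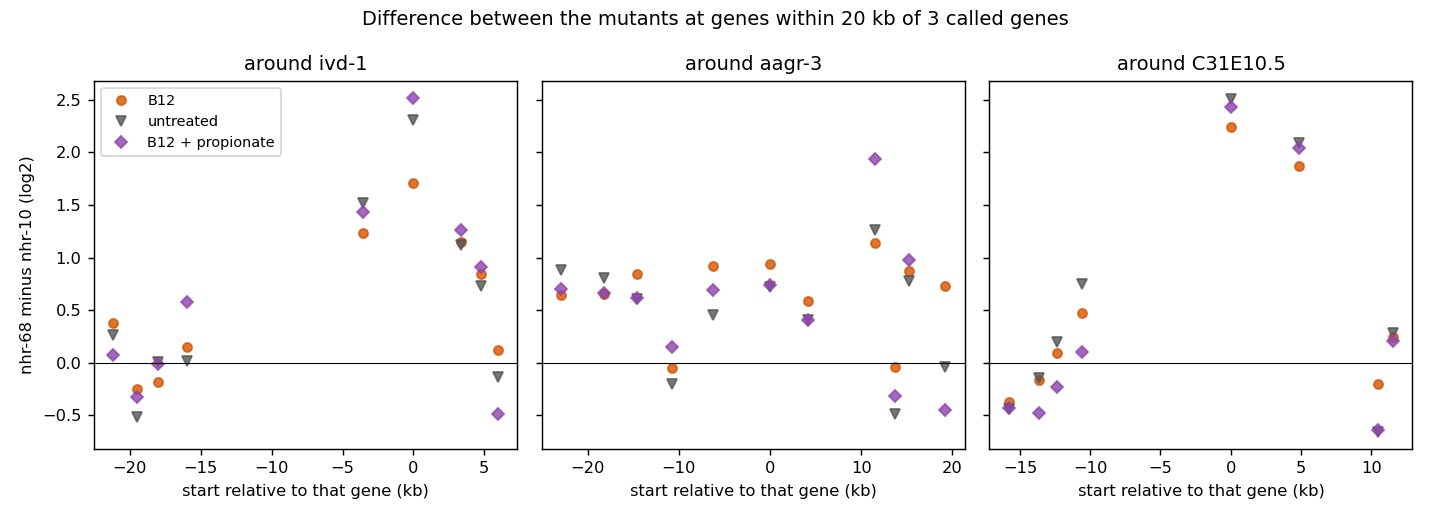
Difference between nhr-68 and nhr-10 mutants (y axis, log2(FPKM + 1)) at genes within 20 kb of ivd-1, aagr-3 and C31E10.5, by the distance of their start from that gene's start (x axis, kb), with 1 symbol per treatment. Genes near ivd-1 and aagr-3 lie above 0 in all 3 treatments, in the run from pygo-1 to C02B10.4 and at 7 of the 10 neighbours of aagr-3, and around C31E10.5 the points of C31E10.6, F48F7.8 and tbc-19 lie above 0 in all 3 treatments, at 1.87, 0.47 and 0.24 on B12, with the libraries of F48F7.8 overlapping between the mutants.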

How the data were processed

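RNA was sequenced from whole L4 animals in 18 libraries, 9 groups of 2 (3 genotypes by 3 treatments). The authors deposited FPKM values for 20953 genes, with each replicate in its own column. HISAT, Bowtie2 and RSEM were used with genome build WBcel235, per the submitters' processing notes. Neither their settings nor the use of strand is given in these sources. FPKM is relative to library size, so abundant genes that change shift the others. RSEM shares reads between similar genes by estimate. The table gives no counts, so no counting interval was made.

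Groups came from the labels, and columns were matched by name. Gene names and coordinates came from Ensembl release 115, in which 208 gene identifiers were not found and 19090 had a symbol; 130 genes were at 0 in every library. The 15575 genes that reached 1 FPKM in 2 or more libraries were fitted as log2(FPKM + 1) with limma 3.58.1 in R 4.3.3, a mean per group over all 9 groups, and a trended variance prior (9 residual and 3.6 prior degrees of freedom). P-values were adjusted by the Benjamini-Hochberg method over every gene tested, and genes under 0.05 were called. The fit was tested on simulated data. Contrasts were nhr-68 minus nhr-10 in each treatment, the differences of these between B12 and the other treatments, and each mutant minus wild type on B12.

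Named are both receptor genes, the shunt, canonical, methionine cycle and regulator lists, of the called genes the 15 largest rises and falls without overlap, up to 4 members of each other list by adjusted p, and up to 6 called genes of each difference between treatments. Snapin, aquaporin and other neighbours, gst-4 and the genes called in both other treatments were named after their values were seen. The comparison, lists and alternatives were chosen with earlier results of these data known. Alternatives were median-ratio scaling, a pseudocount of 0.1, all genes without a filter, only the compared groups, a replicate block, leaving out each library and, added after seeing the data, stage components as covariates.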

Additional observations from a re-analysis of the deposited data

Results flagged for a closer look

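The difference between nhr-68 and nhr-10 mutants was tested for a change between treatments at every gene, and 3 genes passed between B12 and untreated animals and 5 between B12 and B12 with propionate, by limma with Benjamini-Hochberg adjustment over 15575 genes. Against untreated animals the difference of the log2 differences was -5.63 for C09B8.4, -6.14 for acdh-2 and -1.8 for dhs-25. Against propionate it was -5.76 for C09B8.4, -5.93 for acdh-2, -2.32 for dhs-25, -2.56 for folt-2 and -2.55 for ugt-53. A negative value means that the excess of nhr-68 over nhr-10 mutants was smaller on B12. C09B8.4 and acdh-2 were listed at 0 in both nhr-10 libraries on B12, so their values depend on the pseudocount of 1 and are no bound on the fold.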

How the results depend on the processing

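No called value changed sign under an alternative. Of 2270 values of 213 named genes under the alternatives, 2147 kept their side of the threshold, 109 lost it and 14 gained it. The count on B12 (22) was 1 with only the compared groups in the fit and 8 to 12 when a library was left out; it was 22 to 27 with another pseudocount, no filter, scaling or the block. The untreated count (87) was 15 with only the compared groups and 27 to 53 with a library left out. The propionate count (199) was 12 with only the compared groups, 125 with a pseudocount of 0.1, 34 with stage components and 52 to 376 with a library left out, the highest without replicate 1 of the nhr-10 mutants on propionate. For B12 minus untreated (3) the count was 5 with scaling, 9 without the filter, 0 with a pseudocount of 0.1 (limma, 277 at an unadjusted p under 0.05) and 2 in each fit that left out a library. For B12 minus propionate (5) it was 8 with scaling, 30 without the filter, 0 with only the compared groups (limma, 996 unadjusted) and 4 to 67 with a library left out, the highest again without that replicate. Against wild type, nhr-68 mutants (1532) had 3 with stage components and 181 to 773 with a library left out; nhr-10 mutants (1507) had 118 with only the compared groups, 2 with stage components and 103 to 1906 with a library left out. Leaving out groups or libraries leaves fewer samples; other causes were not tested. Median-ratio scaling moved the median difference of all genes to -0.006 on B12 (from -0.087), -0.01 untreated (from -0.164) and -0.017 on propionate (from -0.119). Values near 0 FPKM rest on few fragments.

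Same-numbered libraries did not deviate together throughout (r of -0.379 to 0.563 over 36 pairs of groups, 15 above 0.1, and 0.432 between nhr-68 and nhr-10 mutants on B12), and the labels do not say what a number marks, so the numbers were not taken as pairs. With the replicate number as a replicate block, 25 genes were called on B12, 134 untreated, 198 on propionate, 4 for B12 minus untreated, 8 for B12 minus propionate, and 1654 and 1579 for nhr-68 and nhr-10 mutants against wild type.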

Other observations

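At hsp-70 and hsp-16.41 the wild type libraries on B12 were farther apart than the mutants. hsp-70, an inducible chaperone, had 7.08 and 10.97 FPKM in nhr-68 mutants, 4.77 and 7.24 FPKM in nhr-10 mutants, and 92.2 and 1.92 FPKM in wild type. hsp-16.41, a small heat shock protein gene, had 3.30 and 6.06 FPKM in nhr-68 mutants, 1.75 and 3.63 FPKM in nhr-10 mutants, and 118 and 0.42 FPKM in wild type. The 2 wild type libraries lay on either side of both mutants at these genes, unlike hsp-1, a constitutive chaperone, with 1462 and 1112 FPKM in nhr-68 mutants, 1225 and 1054 FPKM in nhr-10 mutants and 1317 and 1314 FPKM in wild type. No heat shock gene of the 8 tested was called between the mutants. In the other treatments the mutant libraries of hsp-70 were far apart too. Untreated, hsp-70 had 1.88 and 61.3 FPKM in nhr-68 mutants and 2.6 and 80.8 FPKM in nhr-10 mutants. On propionate it had 5.73 and 54.9 FPKM in nhr-68 mutants and 7.04 and 42.4 FPKM in nhr-10 mutants.

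No gene of the sulphur metabolism list was called between the mutants on B12. rhy-1, a negative regulator of the hypoxia factor HIF-1, had 1.75 and 2.79 FPKM in nhr-68 mutants, 3.63 and 4.74 FPKM in nhr-10 mutants and 6.35 and 9.94 FPKM in wild type (-0.68, SE 0.34, adjusted p = 0.883). cysl-2, a cysteine synthase-like gene, had 29.5 and 43.1 FPKM in nhr-68 mutants, 51.3 and 57.1 FPKM in nhr-10 mutants and 79.1 and 59.7 FPKM in wild type (-0.59, SE 0.39, adjusted p = 0.903). Of 18 genes of this list tested, 7 were non-overlapping and lower in nhr-68 mutants (38.9%), against 24.8% of all genes. Non-overlapping and higher was 1 (5.56%), against 10.4% of all genes. The median difference was -0.17, or -0.08 with median-ratio scaling, against -0.087 and -0.006 for all genes.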
